A study of Mus musculus with 12 samples.

Results

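Kcnj8, Abcc9, Rgs5, Des, Pdgfrb, Cspg4 and Notch3 are 7 of the 27825 genes measured in sorted cells of mouse mesentery and epididymal fat, and they are described here across diet and tissue. Earlier results of these data were known at the choice: Kcnj8 was chosen by its measured diet changes, which differed between the 2 tissues, and the other 6 were taken as the partner subunit of its channel and as genes by which pericytes are recognised. The values of Kcnj8 are therefore given as a description with no test, and the tests of the other 6 are not independent evidence. All 7 were read in each of the 12 libraries and all 7 passed the minimum mean level of 10 normalized counts that left 22238 genes for testing.

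The cells came from male mice that carried a yellow fluorescent reporter (ROSA26-eYFP+/+) and Cdh5-CreERT2, a tamoxifen-inducible Cre recombinase driven by the endothelial gene Cdh5. Every group, the chow groups included, received tamoxifen in the food for 2 weeks from 6 weeks of age. From 8 weeks of age the mice ate normal chow with 5.8% fat (NC) or a high fat diet with 60% fat (HFD) for 12 to 13 weeks. Mesentery (Mes) or epididymal fat (Epi) of 6 mice was pooled for each library and digested with actinomycin D present, and YFP-positive cells were sorted. The 4 groups, Mes NC, Mes HFD, Epi NC and Epi HFD, had 3 libraries each, lettered A, B and C, of bulk RNA-seq. The sort selects cells with a history of Cdh5 activity, so pericytes are not the cells it was set to collect, and the libraries pool all sorted cells. In such a pool, fewer cells of a type and less RNA per cell cannot be told apart.

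The KATP channel of vascular mural cells is built from the inwardly rectifying potassium channel Kir6.1, encoded by Kcnj8, and the regulatory sulfonylurea receptor SUR2, encoded by Abcc9. It closes when cellular ATP is plentiful and opens when energy is low or when dilators raise cyclic AMP. Potassium then leaves the cell, the membrane hyperpolarises, and the vessel relaxes. Pericytes are the mural cells that wrap capillaries. Kcnj8, Abcc9 and Rgs5 are among the genes by which they are told from other cells of a vessel wall, although each is also made by some other cells. Their recruitment depends on PDGF-B from endothelium acting on the receptor PDGFRB, and Notch3 is the main Notch receptor of mural cells.

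Kcnj8 (ENSMUSG00000030247) and Abcc9 (ENSMUSG00000030249) are neighbours on chromosome 6, both on the minus strand, with no other protein-coding gene between them in the RefSeq gene order. The 250 bases before each start are shown because the subunit genes lie side by side, but only Kcnj8 had separate diet groups in mesentery. Both come from RefSeq on build GRCm38.p6, at chr6:142571615-142571864 for Kcnj8 and chr6:142702275-142702524 for Abcc9, and run 5′ to 3′ toward the first transcribed base. Capitals mark matches to the letters TGGGAA, the core read by the Notch effector RBPJ, and CANNTG, the E-box.
Kcnj8: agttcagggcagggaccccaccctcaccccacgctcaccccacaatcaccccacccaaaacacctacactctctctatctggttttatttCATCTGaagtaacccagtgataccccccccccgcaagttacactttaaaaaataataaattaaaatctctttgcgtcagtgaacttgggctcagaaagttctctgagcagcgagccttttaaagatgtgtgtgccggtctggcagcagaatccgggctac
Abcc9: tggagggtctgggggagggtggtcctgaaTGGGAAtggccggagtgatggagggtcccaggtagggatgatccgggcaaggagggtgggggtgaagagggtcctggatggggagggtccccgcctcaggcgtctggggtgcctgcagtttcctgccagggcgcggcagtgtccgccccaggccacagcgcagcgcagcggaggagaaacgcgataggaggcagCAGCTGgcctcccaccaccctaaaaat
The Kcnj8 stretch held an E-box starting at position -160, counted back from the first transcribed base, and was 49.2% G and C. The Abcc9 stretch held TGGGAA at -221 and an E-box at -27, and was 66.8% G and C. Both strands were searched over 300 bases, from 250 before to 50 after each start, and 6 of the 7 genes had an entry. In the Kcnj8 window 1 TGGGAA match fell just past the printed end, at the first transcribed base. Of 32851 promoters of this length, 25.6% held TGGGAA and 72.3% held an E-box. The CArG box of smooth muscle genes was found in none of the 6 windows and in 1.63% of all promoters. The GC box GGGCGG matched 1 time in the Abcc9 window and 0 times in that of Kcnj8, against 35.7% of all promoters with a match. These are letter matches only, and no binding was measured.

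Library totals ran from 8348897 to 25397963 reads assigned to genes. Values are the authors' normalized counts, in which 3 reads correspond to between 2.12 and 4.22 normalized counts. The endothelial markers Cdh5 and Pecam1 were high in every library, with lowest values of 2172 and 3730 normalized counts. Other cell types were also read: Pdgfra of fibroblasts, Adipoq of adipocytes, and Acta2 and Myh11 of smooth muscle had reads in every library, and Adgre1 of macrophages had reads in all but part of the Mes NC group. The protocol speaks of 2 independent replicates, whereas the labels give 3 letters and the numbers 50 to 53 and 87 and 88, so the p-values measure only the spread between these libraries, which may be partly technical. Each group holds 1 library numbered 87 (C on chow) or 88 (A on high fat diet), and changes within each number range are given for Kcnj8 and for the genes where they lie furthest apart.

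Kcnj8 was lowest in mesentery on chow, and the diet groups differed in opposite directions in the 2 tissues. In Mes NC it had 80.8, 102 and 144 normalized counts, and in Mes HFD 384, 319 and 369. In Epi NC the values were 2519, 2568 and 3247, and in Epi HFD 518, 903 and 793. The order of the groups was Epi NC, Epi HFD, Mes HFD and Mes NC, from highest to lowest, and no library of a group overlapped with the next. Group means were 109 ± 31.9, 357 ± 34.2, 2778 ± 407 and 738 ± 198 normalized counts (SD, n = 3) for Mes NC, Mes HFD, Epi NC and Epi HFD.

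On the fitted log2(normalized count + 1) scale, Kcnj8 was 1.74 higher on the high fat diet in mesentery (SE 0.25) and 1.94 lower in epididymal fat (a change of -1.94). The difference of the diet effects, epididymal minus mesenteric, was -3.68 (SE 0.353). Within the libraries numbered 50 to 53 the changes were 1.90 and -1.59, and between those numbered 87 and 88 they were 1.41 and -2.64, with the same directions. The tissue difference, Epi minus Mes, was 4.69 on chow but 1.01 after the high fat diet. The Epi library exceeded the Mes library of the same number by 4.94, 4.64 and 4.49 on chow, and by 0.43, 1.5 and 1.10 on the high fat diet. Whether libraries of the same number come from the same mice is not stated in the labels.

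Abcc9, the regulatory subunit, was also higher in epididymal fat, but in mesentery its diet groups were not separate as those of Kcnj8 were. Its Mes NC values were 60.4, 22.4 and 134 normalized counts, and its Mes HFD values 78.6, 22.2 and 187. These diet groups overlapped fully, with library B low and library C high on either diet. The labels do not state that libraries of the same letter are linked across diets. Epi NC had 408, 523 and 639, and Epi HFD 260, 193 and 170, with no overlap. The fitted diet change was 0.28 in mesentery (SE 0.683, 95% interval -1.19 to 1.75, adjusted p = 0.981) and -1.33 in epididymal fat (95% interval -2.80 to 0.14, adjusted p = 0.823, limma). The mesenteric interval includes both 0 and the 1.74 of Kcnj8, so it cannot tell whether the 2 subunits moved together there. The mesenteric value turned negative, to -0.37 and -0.43, without Mes NC library B or Mes HFD library C, and it was 0.80 in libraries 50 to 53 and -0.76 between 87 and 88.

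The other subunits of the channel family added little. Abcc8, which encodes the SUR1 receptor best known from pancreatic beta cells, lay between 0 and 23.6 normalized counts and its mean was under the minimum of 10, so it was not tested. Kcnj11, which encodes the related pore subunit Kir6.2, was not analysed here.

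**Figure D1:**
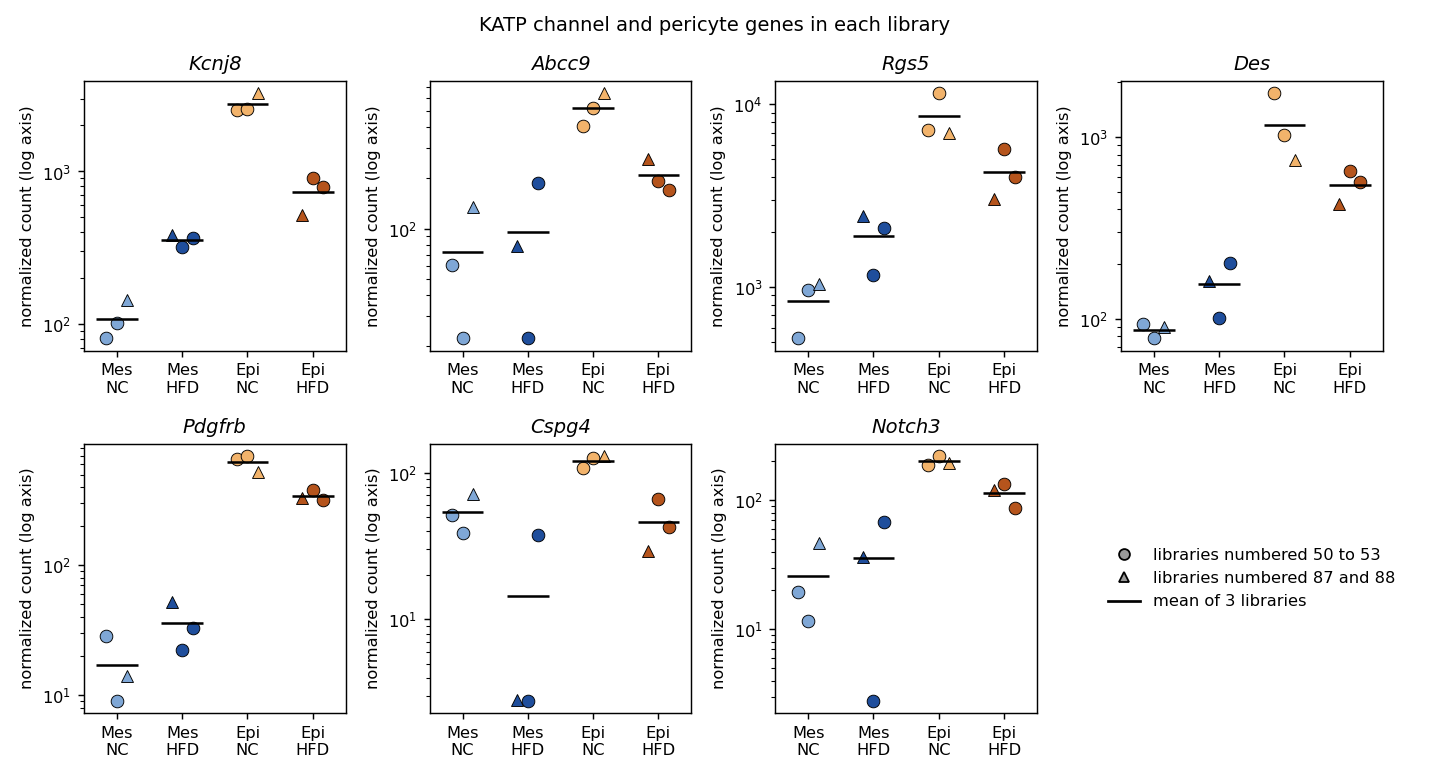
Normalized counts of the 7 genes in each of the 12 libraries on a log axis, 1 panel per gene, with the 4 groups on the horizontal axis. Circles are libraries numbered 50 to 53, triangles those numbered 87 and 88, and the line is the mean of 3. Kcnj8 lies between 80.8 and 144 in Mes NC and between 2519 and 3247 in Epi NC, and all 7 genes are lower in Epi HFD than in Epi NC without overlap.

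Of the other 6 genes, Rgs5 and Des were those whose levels went most nearly with Kcnj8. Rgs5 (regulator of G protein signalling 5) shortens the signal from G-protein-coupled receptors such as those for constrictors. It had 524, 961 and 1033 normalized counts in Mes NC and 2433, 1171 and 2116 in Mes HFD. In Epi NC it had 7262, 11473 and 7002, and in Epi HFD 3017, 5712 and 3995. The diet groups did not overlap in either tissue, higher on the high fat diet in mesentery and lower in epididymal fat. The fitted changes were 1.18 (SE 0.341, adjusted p = 0.543) and -1.03 (adjusted p = 0.320), so neither passed limma's threshold of an adjusted p under 0.05.

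Des encodes desmin, the intermediate filament of muscle and of many pericytes. Its values were 93.4, 78.0 and 90.1 normalized counts in Mes NC and 161, 101 and 202 in Mes HFD. Epi NC had 1736, 1023 and 743, and Epi HFD 425, 649 and 563. As for Rgs5, the diet groups did not overlap and lay in opposite order in the 2 tissues. The limma change was 0.77 in mesentery (SE 0.323, adjusted p = 0.745) and -1.03 in epididymal fat (95% interval -1.73 to -0.33, adjusted p = 0.272). Striated muscle also makes desmin, and its markers had a summed level of at most 2003 normalized counts in any library, and their part in the Des values was not tested.

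The 3 surface receptors shared the high level in epididymal fat but not a common diet pattern in mesentery, where few reads stood behind them. Pdgfrb, the receptor for PDGF-B, had 28.5, 8.96 and 14.1 normalized counts in Mes NC, which were 25, 10 and 10 reads. Mes HFD had 52.4, 22.2 and 32.6, overlapping with chow. Epi NC had 659, 697 and 525, and Epi HFD 329, 384 and 317, a narrow spread within each diet and no overlap between them. The limma change was 1.08 in mesentery (SE 0.419, adjusted p = 0.718) and -0.86 in epididymal fat (95% interval -1.77 to 0.04, adjusted p = 0.771).

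Cspg4 encodes NG2, a membrane proteoglycan of pericytes and of some glial precursors. It was the gene that departed most from Kcnj8, since it was lower on the high fat diet in both tissues. Mes NC had 51.2, 38.5 and 71.8 normalized counts, and Mes HFD 2.81, 2.77 and 37.5, the first pair resting on 3 and 2 reads. Epi NC had 107, 125 and 130, and Epi HFD 29.2, 66.1 and 42.5. Neither tissue had overlapping diet groups, but the Mes HFD libraries were far apart among themselves. The fitted change in mesentery was -2.70 (SE 0.795, adjusted p = 0.556, limma), a value that depends on the added count of 1 because 2 libraries lie at or under 3 reads, and edgeR on the recovered reads gave -1.85. Within number ranges it was -1.91 in libraries 50 to 53 and -4.26 between 87 and 88. In epididymal fat the limma change was -1.45 (95% interval -3.16 to 0.27, adjusted p = 0.887).

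Notch3, the mural Notch receptor, had 19.4, 11.6 and 46.5 normalized counts in Mes NC and 36.5, 2.77 and 67.2 in Mes HFD. The Mes HFD values spanned 2 to 68 reads and enclosed those on chow. Epi NC had 186, 220 and 193, and Epi HFD 120, 134 and 87.1, with no overlap. The limma change was -0.83 in epididymal fat (95% interval -2.67 to 1.02, adjusted p = 1.00). In mesentery it was -0.11 (95% interval -1.96 to 1.73, adjusted p = 0.995), and its sign is not fixed, as edgeR gave 0.53 and leaving out Mes HFD library B gave 1.13.

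Of the 2 diet comparisons, that in epididymal fat gave a more uniform picture than that in mesentery. In epididymal fat all 6 genes other than Kcnj8 were lower on the high fat diet with no overlap between groups, where 6.57% of all tested genes were lower in that way. None of the 6 passed limma's test, in which 0.549% of all genes were called in either direction, and 2 had an unadjusted p under 0.05, as did 6.94% of all genes. EdgeR called 0 of the 6 and DESeq2 called 1, Des, at an adjusted p of 0.0447. The median change of the 6 was -1.03, against 0.10 for all tested genes.

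In mesentery, 2 of the 6, Rgs5 and Des, were higher on the high fat diet with no overlap, against 4.47% of all genes, and Cspg4 was lower with no overlap, against 5.14%. Limma, edgeR and DESeq2 each called 0 of the 6, and limma called 0.0135% of all genes. An unadjusted p under 0.05 was reached by 4 of the 6 and by 6.15% of all genes. The median of the 6 was 0.52, against -0.00 for all genes. Of all genes, 0.405% were higher in mesentery and lower in epididymal fat without overlap in either tissue, as Rgs5 and Des were. Kcnj8 was so too, but it was chosen for its diet changes.

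Limma's test of the difference of the diet effects asked, for each of the 6, if diet acted unequally in the 2 tissues. The difference was -2.20 for Rgs5 (SE 0.482, 95% interval -3.24 to -1.16, adjusted p = 0.285), -1.80 for Des (SE 0.457, adjusted p = 0.414) and -1.94 for Pdgfrb (SE 0.593, adjusted p = 0.621). Abcc9, Cspg4 and Notch3 had differences of -1.61, 1.25 and -0.71 with intervals that included 0. Thus 0 of the 6 passed limma's threshold, which 0.0045% of all genes did, while 3 of the 6 and 4.71% of all genes had an unadjusted p under 0.05. EdgeR also called 0, and DESeq2 called 2, Rgs5 at an adjusted p of 0.00420 and Des at 0.0231.

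**Figure D2:**
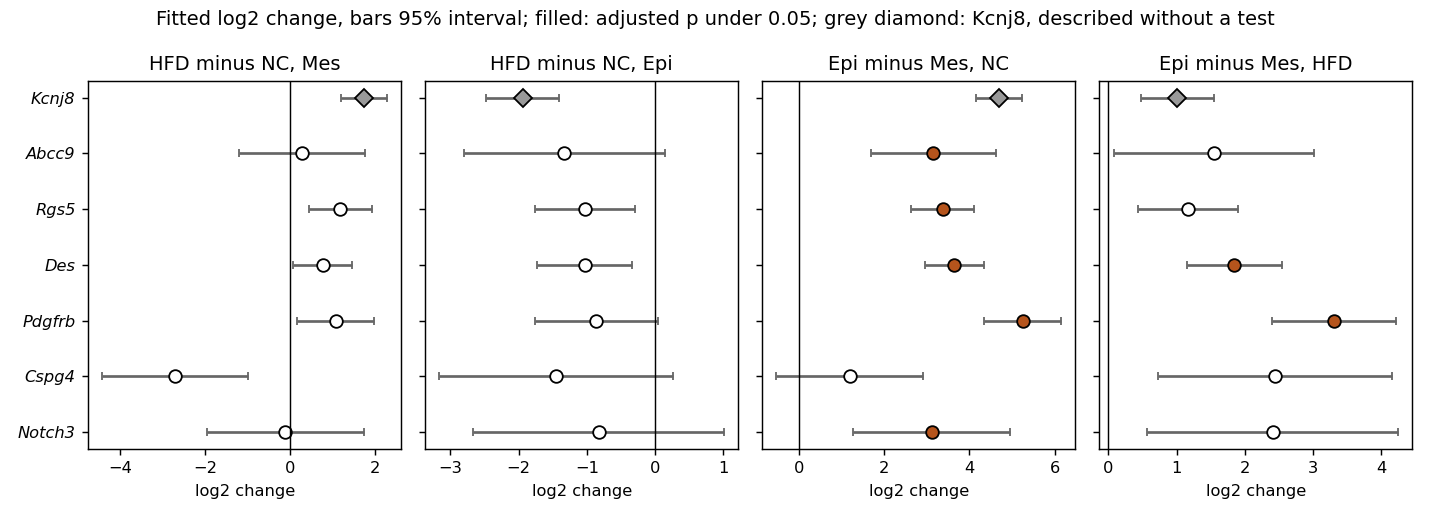
Fitted log2 changes of the 7 genes with 95% intervals, 1 panel per comparison, with a horizontal axis of its own in each panel. Filled points passed an adjusted p of 0.05 by limma, and the grey diamond is Kcnj8, drawn without a test. On chow 5 of the 6 tested genes pass and on the high fat diet 2 pass, while 0 pass in the diet comparisons.

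The difference between tissues was the clearest result for the pericyte genes other than Kcnj8, but it was not particular to them. On chow, 5 of the 6 were higher in epididymal fat at an adjusted p under 0.05, where 7.32% of all genes were called higher and 12.8% in either direction. Limma also called higher there 8 of 9 adipocyte, 10 of 13 fibroblast, 4 of 6 mesothelial and 5 of 12 macrophage genes. Their median log2 differences were 3.57, 2.19, 3.14 and 2.99. By contrast, it called 2 of 15 pan-endothelial genes higher and 8 lower, and 1 of 7 striated muscle and 0 of 3 Schwann cell genes higher. The log2 difference was 5.25 for Pdgfrb (adjusted p = 6.05e-06), 3.64 for Des (adjusted p = 1.42e-05) and 3.38 for Rgs5 (adjusted p = 3.82e-05). For Abcc9 it was 3.16 (adjusted p = 0.00840) and for Notch3 3.12 (adjusted p = 0.0287, limma). Cspg4 was 1.19 higher without passing (adjusted p = 0.4). All 6 lay above Mes NC in each Epi NC library, where 16% of all genes were higher without overlap. The call for Notch3 was lost without any 1 of 5 of the 6 chow libraries, with adjusted p between 0.053 and 0.100.

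On the high fat diet 2 of the 6 were higher in epididymal fat, Pdgfrb by 3.31 (adjusted p = 0.000325) and Des by 1.85 (adjusted p = 0.00348, limma), where 4.91% of all genes were called higher and 8.34% in either direction. Rgs5 was close to the threshold, at 1.17 (adjusted p = 0.0513), and its 3 Epi libraries all lay above the 3 Mes libraries, which 15.1% of all genes did. Its difference was 1.60 in libraries 50 to 53 and 0.31 between the libraries numbered 88. Notch3 stood at 2.41 (adjusted p = 0.110) without overlap. Abcc9 at 1.55 (adjusted p = 0.210) and Cspg4 at 2.44 (adjusted p = 0.0814) had overlapping groups. Without Mes HFD library C, in which both had their highest Mes HFD value, Cspg4 and Notch3 also passed, with 4 of 6 called. The median difference of the 6 genes was 3.27 on chow but 2.13 after the high fat diet, against -0.08 and 0.06 for all genes. The 2 tissue comparisons do not share libraries, and the test of their difference is the difference of the diet effects given above.

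A ratio of 2 genes within a library does not depend on how the library was scaled, and it shows whether Kcnj8 kept pace with the other genes. In epididymal fat it did not. The ratio of Kcnj8 to Pdgfrb was 3.82, 3.69 and 6.18 in Epi NC and 1.57, 2.35 and 2.50 in Epi HFD. The ratio to Rgs5 was 0.347, 0.224 and 0.464 in Epi NC and 0.172, 0.158 and 0.198 in Epi HFD. All 6 ratios were lower on the high fat diet with no overlap between groups, by between 0.47 (Cspg4, a log2 difference of -0.47) and 1.11 (Notch3, -1.11). The direction was the same in libraries 50 to 53 and between 87 and 88, where 1 library stands on each side. The 6 ratios share Kcnj8, which was chosen for its diet pattern, so they are not separate observations. No share over all genes is given for such ratios. The ratio to Abcc9, its partner, differed by -0.61 over all libraries, by -0.24 in libraries 50 to 53 and by -1.35 between libraries 87 and 88.

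In mesentery the ratios pointed the other way. Kcnj8 relative to Rgs5 was 0.154, 0.106 and 0.139 in Mes NC and 0.158, 0.272 and 0.174 in Mes HFD, a log2 difference of 0.57 with groups that only just separate. Relative to Des the difference was 0.98, also without overlap. The ratio to Cspg4 was higher in each Mes HFD library than in any Mes NC library, but it rests on 2 and 3 reads of Cspg4. The ratios to Abcc9, Pdgfrb and Notch3 overlapped, and that to Pdgfrb changed sign between number ranges, from 1.16 in libraries 50 to 53 to -0.47 between 87 and 88. No test was made of any ratio, because Kcnj8 was chosen for its pattern.

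**Figure D3:**
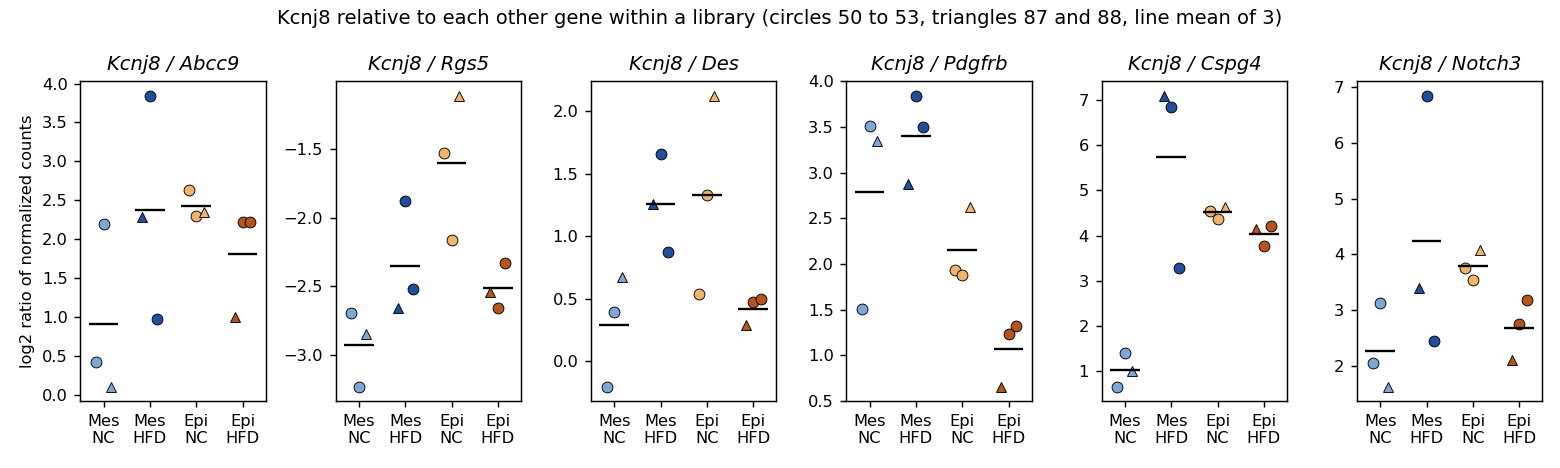
The log2 ratio of Kcnj8 to each of the other 6 genes within a library, by group, with a vertical axis of its own in each panel; circles are libraries 50 to 53, triangles 87 and 88, and lines are means of 3. In each panel the 3 Epi HFD libraries lie below the 3 Epi NC libraries, while the Mes groups overlap for Abcc9, Pdgfrb and Notch3.

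Levels were also set against the endothelial gene Cdh5 in the same library, a comparison added after the values were seen. Kcnj8 per 1000 normalized counts of Cdh5 ran from 576 to 859 in Epi NC and from 195 to 310 in Epi HFD. It ran from 20.0 to 54.1 in Mes NC and from 119 to 130 in Mes HFD, so the order of the groups was as before. On this scale Rgs5 and Cspg4 kept separate diet groups in epididymal fat, at 1853 to 2575 against 1235 to 1561 for Rgs5 and 28.1 to 34.3 against 13.5 to 16.6 for Cspg4. Those of Abcc9, Des, Pdgfrb and Notch3 overlapped, for example 139 to 207 against 83.0 to 152 for Pdgfrb. In mesentery the diet groups were separate, and higher on the high fat diet, for Rgs5 (129 to 389 against 437 to 825), Des (16.2 to 33.9 against 37.7 to 70.1) and Pdgfrb (1.86 to 7.04 against 8.27 to 17.8). Pdgfrb had overlapped there on normalized counts, where it rested on 10 to 56 reads. Abcc9, Cspg4 and Notch3 overlapped on the Cdh5 scale in mesentery. This scale also carries differences in Cdh5 itself. In mesentery the log2 change of Kcnj8 was 2.15 relative to Cdh5 and 1.74 on the fitted scale, and in epididymal fat -1.59 and -1.94. No share over all genes is given for the Cdh5 scale.

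The genes whose pattern was nearest to that of Kcnj8 over the 12 libraries were found by the root mean square difference of log2 values, each gene centred on its own mean. The ranking took 11543 genes that reached a mean of 50 or more. The nearest was G0s2, an inhibitor of adipose triglyceride lipase, at 0.407, followed by Ppp1r1a, a protein phosphatase inhibitor, at 0.531, and the growth factor Bmp4 at 0.546. Smoc1, a matrix protein, stood at 0.551, Steap4, a metalloreductase of pericytes and adipocytes, at 0.553, and Cd247, the zeta chain of the T cell receptor complex, at 0.560. Rgs5 at 0.566 and Art3, an ADP-ribosyltransferase family member found in pericytes, at 0.573 completed the 8. G0s2 had means of 209 in Mes NC, 419 in Mes HFD, 3348 in Epi NC and 1084 normalized counts in Epi HFD. Of the 8 genes, 3 were also among the nearest 8 when libraries 50 to 53 alone were used.

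Of the remaining 5 genes, Des ranked 14 in likeness to Kcnj8, at 0.625. Pdgfrb ranked 202 and Abcc9 206, at 0.994 and 0.997. Notch3 ranked 496 and Cspg4 6947, at 1.21 and 1.84. The partner subunit Abcc9 was therefore not among the nearest 8, but its rank of 206 was out of 11543 genes. Spread between its libraries also adds to its distance, so the rank does not show that the subunits differed in pattern.

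A list of 23 other pericyte genes is set beside the 6. On chow 13 were higher in epididymal fat and 1 lower by limma, with a median of 2.78, where 5.47% of all genes were called lower. Steap4 was higher by 5.12 (SE 0.407, adjusted p = 5.76e-06), Foxs1, a forkhead factor of perivascular cells, by 4.34, Heyl, a Notch target, by 4.06 and Vtn, which encodes vitronectin, by 3.93. On the high fat diet 8 were higher and 1 lower (3.43% of all genes were called lower), with a median of 1.98, Vtn by 2.94 and Steap4 by 1.99 among them. Of these 23, 15 were lower in Epi HFD than in Epi NC with no overlap and 1 was higher, with a median change of -0.61. Of all genes, 6.93% were higher there without overlap. None passed limma, and 6 had an unadjusted p under 0.05, 5 lower and 1 higher, against 6.94% of all genes. EdgeR called 0 and DESeq2 called 2 lower.

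In mesentery the same list had 4 genes higher without overlap and 0 lower, and a median of 0.49. Limma and edgeR called 0, DESeq2 called 2 higher, and 8 had an unadjusted p under 0.05, 7 higher and 1 lower, against 6.15% of all genes. Over all tested genes of the list the direction was mixed, 12 positive and 11 negative. The difference of the diet effects was called for 0 of the 23 by limma and edgeR and for 4 by DESeq2, all lower in epididymal fat relative to mesentery, and 8 had an unadjusted p under 0.05, against 4.71% of all genes.

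Genes that act on the receptors or on the channel were counted in the same comparisons, in which limma called 12.8% of all genes between tissues on chow and 8.34% after the high fat diet. Of the 6 PDGF ligands and other receptors, 4 were higher in epididymal fat on chow, among them the fibroblast receptor Pdgfra by 3.58 (adjusted p = 0.00268) and the ligand Pdgfc by 3.24, and 1 was lower. On the high fat diet Pdgfra was 3.40 higher, while Pdgfb, the endothelial ligand of Pdgfrb, was 1.12 lower (adjusted p = 0.0412, limma) and Pdgfd 1.09 lower (differences of -1.12 and -1.09). EdgeR called 0 of the list lower on either diet. Pdgfb means were 2300 ± 894 in Mes NC, 1527 ± 334 in Mes HFD, 946 ± 123 in Epi NC and 711 ± 203 in Epi HFD (SD, n = 3), the reverse of the tissue order of its receptor. In the diet comparisons limma, edgeR and DESeq2 called 0 of the 6, and 0 had an unadjusted p under 0.05, in either tissue. All 6 changes were negative in epididymal fat, with a median of -0.38, while 4 were positive and 2 negative in mesentery.

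Of 17 other genes of the Notch pathway, Heyl was higher in epididymal fat on chow and 2 were lower, Hey1 (-1.08) and the coactivator Maml2 (-0.80). On the high fat diet Notch4, the endothelial Notch receptor (-1.20), and Maml2 (-0.89) were lower. EdgeR called 1 of them higher and 0 lower on chow. For the high fat diet it called 0 higher and 1 lower, and limma's 3 of 17 and 2 of 17 lie near the shares of all genes. In the diet comparisons limma, edgeR and DESeq2 called 0 of the 17 in either tissue, with 1 at an unadjusted p under 0.05 in mesentery and 2 in epididymal fat. In epididymal fat 13 changes were negative and 4 positive, with a median of -0.38. There 4 genes were lower without overlap and 1 higher, against 6.57% and 6.93% of all genes. In mesentery 12 were negative and 5 positive, with a median of -0.15.

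Of 10 tested genes for dilator receptors and kinase subunits that can open the channel through cyclic AMP, 3 were called higher and 1 lower in epididymal fat on chow. The higher ones were the adenosine receptor Adora2a by 3.27 (adjusted p = 0.000905) and the prostaglandin receptors Ptger4 by 2.85 and Ptgir by 2.74. On the high fat diet Ptgir was higher by 2.53, Ptger4 by 2.16 and Ramp1 by 1.88, and Calcrl was lower (-1.06). The products of Calcrl and Ramp1 together form the CGRP receptor, so its 2 parts differed in opposite directions between tissues. In the diet comparisons limma, edgeR and DESeq2 called 0 of the 10, with 1 in mesentery and 2 in epididymal fat at an unadjusted p under 0.05.

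Among 13 other vessel potassium channels, limma called 3 higher and 1 lower in epididymal fat on chow. Kcnn4 was higher by 3.76 and Kcna5 by 2.12, and Kcnq1 was lower (-1.97, adjusted p = 0.000362). On the high fat diet Kcnn4 was higher by 3.12 and Kcnq1 lower (-1.75), 2 calls of 13, where edgeR called 0 higher and 1 lower. Kcnn4 encodes the intermediate-conductance calcium-activated channel of endothelium and of immune cells. In its means, 19.4 in Mes NC, 161 in Mes HFD, 287 in Epi NC and 951 in Epi HFD, it was higher on the high fat diet in both tissues, unlike Kcnj8. Limma and edgeR called 0 of the 13 in the diet comparisons, DESeq2 called 1 in mesentery and 0 in epididymal fat, and 2 and 1 had an unadjusted p under 0.05.

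Markers of other cell types differed along with the 7 genes. The 17 smooth muscle genes had a summed level of 6966 to 9204 normalized counts in Mes NC, 9842 to 14213 in Mes HFD, 25114 to 54633 in Epi NC and 15451 to 31605 in Epi HFD. Limma called 10 of the 17 higher in epididymal fat on chow, Acta2 by 4.79 and Myh11 by 3.99 among them, and 6 on the high fat diet. Of all genes, 7.32% and 4.91% were called higher there. In the diet comparisons limma called 0 of the 17. An unadjusted p under 0.05 was reached by 0 in mesentery and 4 in epididymal fat, against 6.15% and 6.94% of all genes. In epididymal fat 2 were lower without overlap, against 6.57% of all genes, and the median was -0.45. EdgeR called 0 in both tissues, and DESeq2 called 0 in mesentery and 2 lower in epididymal fat. Acta2 itself ran from 3700 to 12795 in Epi NC and from 2016 to 4783 in Epi HFD, so its groups overlapped where those of the 7 genes did not. In mesentery the smooth muscle sums did not overlap and were higher on the high fat diet. Of the single genes, 0 of the 17 were higher without overlap, against 4.47% of all genes, and 13 changes were positive and 4 negative.

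The other pericyte genes summed to 18690 to 21148 in Epi NC and 8729 to 13472 in Epi HFD, and to 8380 to 9069 in Mes NC and 7969 to 8500 in Mes HFD. The 15 pan-endothelial genes summed to 99345 to 117429 in Epi NC and 54388 to 102814 in Epi HFD, with 5 lower without overlap and a median diet change of -0.61. The 9 adipocyte genes went from 64432 to 87525 in Epi NC down to 4389 to 14921 in Epi HFD, with 3 called lower and a median of -1.78. In contrast, the 12 macrophage genes summed to 6419 to 88301 in Epi NC and 139130 to 350123 in Epi HFD, and 9 were higher without overlap. The 13 fibroblast genes summed to 22036 to 64529 and 57503 to 74449, with 3 called higher and a median of 1.41. Of all genes, 0.418% were called higher and 0.13% lower in that comparison, and 6.93% were higher and 6.57% lower without overlap. None of the genes in these 6 lists was at 0 in all libraries of a group, and the part of these cell types in the changes of the 7 genes was not tested.

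In mesentery the sums were 145803 to 220985 and 138978 to 161624 for pan-endothelial genes, 4895 to 7183 and 5063 to 10137 for adipocyte genes, 1644 to 8198 and 4657 to 25150 for macrophage genes, and 7375 to 11037 and 5556 to 11449 for fibroblast genes, on chow and the high fat diet. These ranges overlapped between diets. Of the 12 macrophage genes 11 had a positive diet change in mesentery, with a median of 1.67, 0 called and 1 higher without overlap. Of the 9 adipocyte genes 1, Lep, was called higher by limma (a log2 change of 3.71, adjusted p = 0.0210), 3 were higher and 1 lower without overlap, and the median was 0.81. Lep was chosen for naming after its value was seen. Of all genes, 4.47% were higher and 5.14% lower in mesentery without overlap, and 0.0135% were called by limma. The part of these cell types in the mesenteric changes of the 7 genes was not tested.

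**Figure D4:**
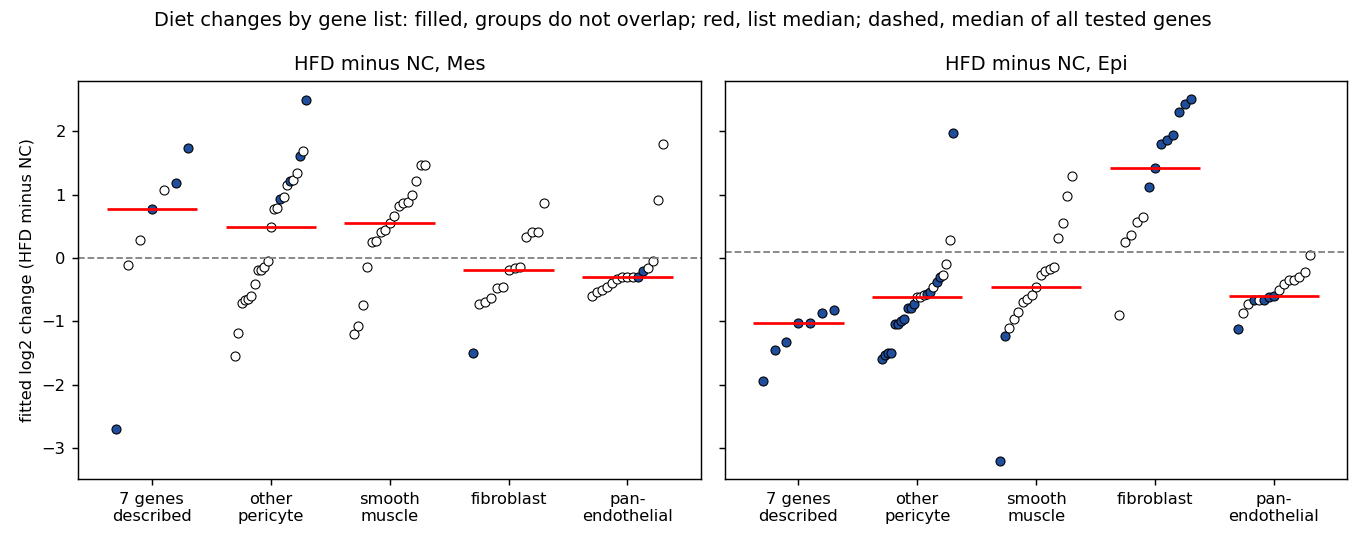
Fitted log2 diet changes (HFD minus NC) of single genes in 5 lists, with mesentery and epididymal fat in separate panels. Filled points are genes whose diet groups do not overlap, red bars are list medians, and the dashed line is the median of all tested genes. In epididymal fat the medians are -1.03 for the 7 genes (Kcnj8 included), -0.61 for the 23 other pericyte genes, -0.45 for smooth muscle, 1.41 for fibroblast and -0.61 for pan-endothelial genes.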

How the data were processed

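Bulk RNA-seq of 12 libraries was deposited as a table of normalized counts that the authors made, a signal with values of 0 or more. Per the submitters' processing notes, STAR 2.7.9a, featureCounts of the Subread package, DESeq2 1.34.0 and build mm39 were named. Their settings, the gene annotation and whether strand was used are not given in the sources used here. Every value was a whole number of reads times 1 step per library (100% whole within 0.01), and the steps equalled median-of-ratios size factors within 1.11e-15. No gene had fewer than 51 reads in all.

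The members and the gene lists were chosen with earlier results of these data known. Groups came from the sample titles. Tests were made with limma 3.58.1 under R 4.3.3 (lmFit, eBayes with trend) on log2(normalized count + 1), a scale that understates changes of low genes, with 1 mean per group over all 12 libraries. It took genes with a mean of at least 10, and p-values were adjusted by Benjamini-Hochberg over 22238 genes within each of 5 comparisons, at 0.05. Fold changes are differences on that scale. Overlap compares the 3 libraries of each group.

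Genes named beside the 7 were the 8 nearest to Kcnj8, fixed markers, and up to 4 genes per list and comparison with the largest change among those past the threshold. Predicted genes were skipped, and some list genes are not reported here. Alternatives were edgeR 4.0.16 and DESeq2 1.42.0 on the recovered reads, other scalings, filters and pseudocounts, replicate blocks and single libraries left out. On simulated data of 22238 genes, the test recovered 99% of log2 changes of 2 in each diet comparison and 73% in the difference of the diet effects. False calls made up 6.16% of calls in mesentery and 6.13% in epididymal fat. The simulation gave every gene the same relative spread beyond counting error. The SEs of the diet changes of the 6 genes ran from 0.323 (Des) to 0.854 (Notch3). These shares are therefore not the power for the genes described. Promoter sequences are RefSeq's for GRCm38.p6, so no coordinates are given for the mm39 values. Depth limits the values of a few reads, and read floors cover counting error only. Paralogous reads and overlapping genes could not be separated in these counts.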

Additional observations from a re-analysis of the deposited data

Results flagged for a closer look

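For Kcnj8, Rgs5 and Des the diet groups did not overlap in either tissue. They lay in opposite order, higher on the high fat diet in mesentery and lower in epididymal fat. This held for 0.405% of all tested genes, a share to set beside Rgs5 and Des among the 6 genes other than Kcnj8. The difference of the diet effects was -3.68 for Kcnj8, -2.20 for Rgs5 and -1.80 for Des on the log2 scale. Kcnj8 was chosen for this difference, so its value is a description. For Rgs5 and Des the difference was tested and did not pass by limma (adjusted p = 0.285 and 0.414), and passed by DESeq2 (0.00420 and 0.0231). For the same difference all 9 adipocyte genes were negative, with a median of -3.45, and each had an unadjusted limma p under 0.05. Of 17 smooth muscle genes 13 were negative, with a median of -0.90, and 5 had such a p, against 4.71% of all genes. Of 12 macrophage genes 11 were positive and 0 had such a p. Limma called 0 in each list, and DESeq2 called 6 adipocyte and 2 smooth muscle genes, all negative. The levels of smooth muscle, adipocyte and macrophage markers that moved in the same libraries are given with the results, and their part was not tested.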

How the results depend on the processing

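Of 762 recomputed values of the 6 genes other than Kcnj8, 734 kept their direction and their side of the threshold. Part of this was fixed in advance. Replicate blocks, the range covariate, a fit without a trend and leaving out a library outside the comparison cannot change a fitted difference, only its p-value. The direction of Kcnj8 was the same in all 127 of its recomputed values, but Kcnj8 was chosen from these data for its diet changes, so this is no independent support. The 6 genes other than Kcnj8 gave the same number of calls under every setting in the diet comparison in mesentery (0). In epididymal fat DESeq2 called 1 and in the difference of the diet effects it called 2, where limma called 0. In the tissue comparison on the high fat diet, leaving out single libraries gave 2 to 4 calls, and on chow 4 to 5. The diet change of Notch3 in mesentery turned positive at a pseudocount of 5 (0.0524), with equal column totals (0.0053), with edgeR (0.53) and with DESeq2 (0.48), and ran from -0.95 to 1.13 without single libraries. That of Abcc9 ran from -0.43 to 1.08, and the difference of the diet effects of Notch3 from -1.96 to 0.13, turning positive without Mes HFD library C. The cause was not tested. Notch3 on chow missed the threshold without a variance trend (adjusted p = 0.0668). Rgs5 on the high fat diet passed in 8 alternatives, DESeq2 among them (adjusted p = 0.00891). Of the 8 genes nearest to Kcnj8, 3 remained with libraries 50 to 53 alone. Equal column totals moved the median of all genes by 0.13 in mesentery, -0.14 in epididymal fat, -0.18 between tissues on the high fat diet and -0.27 for the difference of the diet effects. EdgeR made fewer list calls than limma across the tissues: 3 against 6 for smooth muscle on the high fat diet, 2 against 4 for higher PDGF genes on chow and 0 against 3 for higher dilator genes on the high fat diet.

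The correlation of deviations between libraries of the same number in the 2 tissues ran from -0.15 to 0.58, so the numbers were not taken as pairs. With a replicate block by letter or by number limma called 5 of the 6 on chow, 2 on the high fat diet and 0 in the difference of the diet effects, as without it. The diet comparisons were blocked by letter alone, with 0 called. Deviations also went with the number range, with r = 0.84 between Epi NC C and Epi HFD A, and with the range as a covariate 3 of the 6 passed on the high fat diet, Rgs5 being the third (adjusted p = 0.0483). Limits: mesenteric values of Pdgfrb, Cspg4 and Notch3 rest on few reads, 3 libraries per group may not be independent, and no set of reads was assigned to a cell type.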

Other observations

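The protein-coding genes that flank the Kcnj8 and Abcc9 pair were read off the RefSeq gene order of GRCm38.p6, with no regard to their values. Ldhb, the lactate dehydrogenase B gene next to Kcnj8, had 1652 ± 545 normalized counts in Epi NC and 722 ± 306 in Epi HFD (SD, n = 3), a log2 change of -1.23 with no overlap, and overlapping values of 284 ± 52.2 and 333 ± 156 in mesentery. Cmas, which makes CMP-sialic acid and lies next to Abcc9, was on the opposite side, at 715 ± 160 in Epi NC and 1090 ± 93.5 in Epi HFD, a log2 change of 0.63 with no overlap. Its mesenteric groups, 670 ± 63.0 and 586 ± 108, overlapped. These are values only, and no test of neighbouring genes was made.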
